A study of Saccharomyces cerevisiae with 104 samples.

Results

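Budding yeast strains that had lost the lysine at position 36 of histone H3 were compared with strains that had lost the lysine at position 4. The H3K36 mutants were H3K36A (alanine in place of lysine), H3K36Q (glutamine) and H3K36R (arginine), with 3 libraries each. The H3K4 mutants were H3K4Q and H3K4R, also with 3 libraries each, and there was no alanine substitution at this residue. Members were chosen by the names of the count columns, and made up 15 of the 90 RNA libraries of the series. H3K4R S55 held only 24010 counts in genes and was left out, so that 9 H3K36 libraries were set against 5 H3K4 libraries. WT, the strain without a histone mutation, had 4 libraries and was used as a further reference. All strains were of the background MSY196, based on S288C. The labels give no growth conditions for the RNA samples, and do not say whether the libraries of a genotype came from separate cultures or separate clones of a strain. The p-values therefore measure the spread between these libraries, which may be technical, and not the spread between independently built strains.

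Set2 is the only enzyme that methylates H3K36 in budding yeast, and it acts while it travels with elongating RNA polymerase II. The mark is read by the Rpd3S deacetylase, which keeps the body of a transcribed gene deacetylated and holds promoters inside genes silent. Set1, within the COMPASS complex, methylates H3K4, most strongly at the start of transcribed genes, where the Set3 deacetylase complex is among the readers of the mark. In H3K36A, H3K36Q, H3K36R, H3K4Q and H3K4R neither enzyme can methylate the replaced residue. Arginine keeps the positive charge of lysine, whereas glutamine and alanine lose it. The comparison addresses which messenger RNAs differ between cells without a Set2 site and cells without a Set1 site.

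RNA was read with QuantSeq, which places reads at the 3′ end of polyadenylated transcripts, so that a gene is measured by the ends that fall within its annotation. Counts in genes ranged from 1052417 to 1987690 per H3K36 library, from 1093618 to 1916821 per H3K4 library used, and from 1748800 to 2024896 per WT library. For every count in a gene there were 3.56 to 7.09 reads placed at several sites in H3K36 libraries, 3.89 to 6.69 in H3K4 libraries and 2.64 to 4.78 in WT libraries. By their sample numbers, 9 of the 14 mutant libraries belong to a first set and 5, 1 of each genotype (S94 to S98), to a second. The mutations cannot be checked from gene counts. Transcripts of the cell type alpha were at high levels throughout: MF(ALPHA)1, the alpha-factor gene, had 393.5 to 585.4 CPM (the TMM-scaled count relative to the size of the library) in H3K36 libraries and 440.4 to 592.7 CPM in H3K4 libraries. MFA1, which encodes the factor of the other mating type, had 1.89 to 8.16 CPM in H3K36 libraries and 1.57 to 7.93 CPM in H3K4 libraries. The median log2 level of the genes on a nuclear chromosome lay at most 0.255 from that of all genes, relative to WT, in any of these mutant libraries.

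Of 5821 genes tested, 170 differed between H3K36 and H3K4 mutants at an adjusted p under 0.05, which is what called means below. In H3K36 mutants, 63 of these were lower (1.08% of the genes tested) and the others were higher (1.84%). The median log2 difference over all genes was -0.02. Of the lower genes 27, and of the higher genes 21, differed by more than 1 on the log2 scale. The 4 smallest p-values were those of IRC18, CDA1 and LOH1, genes of the spore wall, and TIR3, a cell wall gene of low-oxygen growth. All 4 were lower in H3K36 mutants. All 170 genes had the same direction in H3K36Q against H3K4Q and in H3K36R against H3K4R. They also had the same direction in the first and in the second set of libraries. These contrasts and sets were parts of the comparison that gave the calls, so this agreement is not independent support. In 63 genes, called or not, every H3K36 library lay on one side of every H3K4 library (1.08% of those tested), and 36 of these were among the 170.

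The count of calls rested on few libraries and on a spread borrowed from other genotypes. Without H3K4R S97 it was 72, of which 63 were among the 170, and 34 of the 52 called genes named by rule lost their call. Leaving out H3K4R S56 instead also changed which genes were called, although the count moved less. In either fit H3K4R had only 1 library, whose spread was taken to be like that of the other genotypes. With only the 5 compared genotypes in the fit the count was 38, all among the 170.

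**Figure D1:**
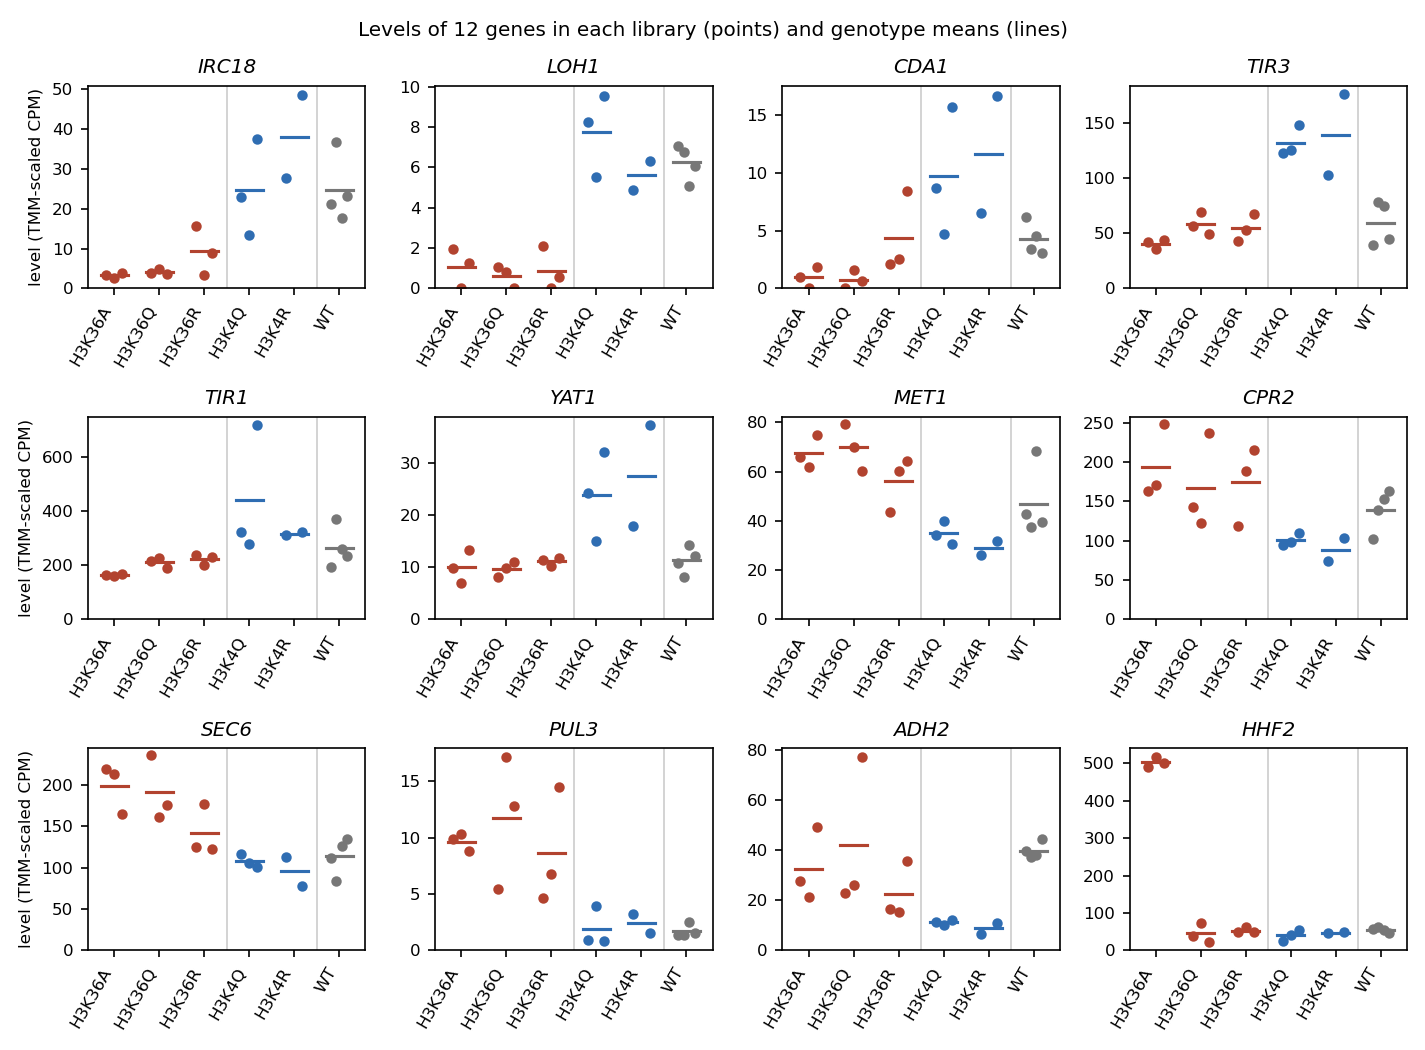
Level of 12 genes in every library (points, TMM-scaled CPM on a linear axis from 0) with the mean of each genotype (lines), for H3K36 mutants in red, H3K4 mutants in blue and WT in grey. The H3K36 libraries of IRC18, LOH1, CDA1 and TIR3 average 5.57, 0.864, 2.01 and 51.2 CPM, below the H3K4 averages of 29.9, 6.91, 10.4 and 134.7 CPM, and HHF2 is high in the 3 H3K36A libraries alone.

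No gene of the enzymes and readers of both marks was called, where 1.84% of all genes tested were called higher and 1.08% lower. In lists this short, 0 calls lie near those shares. Of 21 tested genes of Set2, its helpers and Rpd3S, 0 were called, and their median log2 difference was 0.04, against -0.02 over all genes. Of 24 genes of COMPASS, H2B ubiquitination and the Set3 complex, 0 were called, with a median of 0.05. SET2 averaged 93.1 ± 17.3 CPM (SD, n = 9) in H3K36 libraries, 91.1 ± 26.8 CPM (SD, n = 5) in H3K4 libraries and 71.6 ± 21.4 CPM (SD, n = 4) in WT libraries. SET1 averaged 114.6 ± 21.1 CPM in H3K36 libraries, 109.9 ± 29.7 CPM in H3K4 libraries and 95.8 ± 14.1 CPM in WT libraries. The widest differences on the lists were in CHD1, a remodeller that spaces nucleosomes over genes (0.50 ± 0.18 on the log2 scale, SE, adjusted p = 0.129), RCO1, the subunit that defines Rpd3S (0.48 ± 0.20, adjusted p = 0.232), and SHG1, a subunit of COMPASS (0.59 ± 0.27, adjusted p = 0.295).

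Among 11 histone genes, HHF2 alone was called, where 1.84% of all genes tested were called higher and 1.08% lower. Among the mutants compared, it was high in H3K36A only. HHF2, which encodes histone H4, had 490, 516 and 501 CPM in the H3K36A libraries, 23.7 to 74.2 CPM in the other 6 H3K36 libraries, 24.8 to 54.8 CPM in H3K4 libraries and 45.5 to 63.1 CPM in WT libraries. Without H3K36A in the contrast its log2 difference was 0.18 (adjusted p = 0.921), against 1.30 ± 0.33 (SE, adjusted p = 0.0137) with it. HHF1, the other gene for the same protein, had 641, 624 and 778 CPM in the H3K36A libraries, against 1321 to 3158 CPM in H3K36Q and H3K36R libraries and 1141 to 3357 CPM in H3K4 libraries. As HHF1 and HHF2 are near copies, how reads were split between them is uncertain. In the 24 other mutants the mean level of HHF2 ranged from 18 to 1046 CPM, so that high levels were not particular to H3K36A. The median log2 difference of the 11 genes was -0.17, with 10 below 0.

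Set2 and Rpd3S are best known for silencing promoters that lie inside genes, so 13 genes reported to hold such promoters were examined. Of these, 2 were higher in H3K36 mutants, against 1.84% of all genes tested, and 0 were lower. A difference above 0 was seen in 11, and the median was 0.25 on the log2 scale, against -0.02 over all genes. The list was chosen with earlier results of these data known, so these shares are not independent support. STE11, a kinase of the pheromone pathway and the usual reporter of internal initiation, ranged from 11.5 to 55.9 CPM in H3K36 libraries, with a median of 29.7 CPM. In H3K4Q libraries STE11 had 19.3, 14.2 and 23.5 CPM, in H3K4R libraries 8.11 and 19 CPM, and in WT libraries 11.1 to 27.1 CPM. The groups overlapped: H3K36R S51, with the lowest H3K36 value, lay below 4 of the 5 H3K4 libraries. The log2 difference of STE11 was 1.07 ± 0.31 (SE, adjusted p = 0.0419), and 9 of the 14 fits that left out a library lost the call, with adjusted p up to 0.207. SYF1, a splicing factor, ranged from 34.1 to 54.2 CPM in H3K36 libraries and from 22.2 to 40.1 CPM in H3K4 libraries, and was higher by 0.63 ± 0.16 (SE, adjusted p = 0.0121). Its adjusted p was 0.217 without H3K4R S97. FLO8, the other classic reporter, had 11.5 ± 3.8 CPM in H3K36 libraries and 9.31 ± 2.09 CPM in H3K4 libraries (adjusted p = 0.679). Transcripts that start inside a gene can end at the same 3′ end as full-length ones, so this assay cannot tell the 2 kinds apart.

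A further list held 14 genes reported to be regulated by non-coding transcription over them, of which 10 were tested. Of these 10, ADE12 was lower in H3K36 mutants, against 1.08% of all genes tested. None was higher, against 1.84%, and the median was 0.06. SER3, which the transcript SRG1 represses, had 47 ± 13.9 CPM in H3K36 libraries, 49 ± 11.2 CPM in H3K4 libraries and 33.5 CPM on average in WT libraries (adjusted p = 0.951 between residues). GAL1 and GAL10, also known for such transcripts, stayed under 10 CPM on average in each group, and neither was called.

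Increases in H3K36 mutants included MET1, CPR2 and SEC6, of different pathways. For genes named by rule, here and below, libraries apart were a condition, so lack of overlap is not a separate result. MET1, an enzyme of siroheme synthesis that sulfite reduction needs, ranged from 43.8 to 79.5 CPM in H3K36 libraries, with a median of 64.2 CPM. In H3K4Q libraries MET1 had 34.4, 40.1 and 30.4 CPM, and in H3K4R libraries 26 and 31.7 CPM, so that the groups were apart. MET1 was higher by 1.01 ± 0.18 on the log2 scale (SE, adjusted p = 0.000167). CPR2, a cyclophilin of the secretory pathway, ranged from 118.8 to 248.7 CPM in H3K36 libraries (median 170.5 CPM). In H3K4 libraries CPR2 had 94.5, 98.3 and 110.4 CPM (H3K4Q) and 74.6 and 103.1 CPM (H3K4R). CPR2 was higher by 0.91 ± 0.15 (SE, adjusted p = 4.56e-05), without overlap. SEC6, a subunit of the exocyst that tethers vesicles at the growing bud, ranged from 122.9 to 236.7 CPM in H3K36 libraries (median 176 CPM). In H3K4 libraries SEC6 had 116.5, 106.2 and 100.8 CPM (H3K4Q) and 112.8 and 78.5 CPM (H3K4R), also without overlap, and its log2 difference was 0.79 ± 0.13 (SE, adjusted p = 0.000109). These 3 genes kept their call in all 14 fits that left out a library, the largest adjusted p being 0.00648 for MET1, 0.0041 for CPR2 and 0.0149 for SEC6.

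Further genes with every H3K36 library above every H3K4 library kept their call in all 14 such fits. FDC1, a decarboxylase that removes phenylacrylic acids, ranged from 45.3 to 63 CPM in H3K36 libraries and from 28.3 to 33 CPM in H3K4 libraries, and was higher by 0.79 ± 0.15 (SE, adjusted p = 0.000676). RGD2 ranged from 36.7 to 48 CPM in H3K36 libraries and from 21.2 to 35.3 CPM in H3K4 libraries, and was higher by 0.70 ± 0.14 (adjusted p = 0.00107). The uncharacterised gene YNL040W ranged from 32.3 to 61.1 CPM in H3K36 libraries and from 16.2 to 31.7 CPM in H3K4 libraries, and was higher by 0.97 ± 0.18 (adjusted p = 0.000385). With overlapping libraries, DUR1,2, the urea-degrading enzyme, averaged 115.2 ± 29.4 CPM in H3K36 libraries (SD, n = 9) and 61.8 ± 11.7 CPM in H3K4 libraries (SD, n = 5), and was higher by 0.90 ± 0.17 (adjusted p = 0.000676).

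Large fold increases without overlap, which the naming rule asked for, were also found in genes of low or variable level. PUL3, a putative transporter, ranged from 4.69 to 17.1 CPM in H3K36 libraries and from 0.869 to 3.93 CPM in H3K4 libraries, a log2 difference of 2.21 ± 0.49 (SE, adjusted p = 0.00453, or 0.0613 without H3K4R S97). PGU1, which degrades pectin, ranged from 8.34 to 24.9 CPM in H3K36 libraries and from 4.06 to 7.8 CPM in H3K4 libraries (1.62 ± 0.39, adjusted p = 0.00874, and up to 0.0554 without a library of H3K4R). ADH2, the glucose-repressed alcohol dehydrogenase that oxidises ethanol, ranged from 15.3 to 77.2 CPM in H3K36 libraries, with its highest value in H3K36Q S96. In H3K4 libraries ADH2 had 6.49 to 12.2 CPM, so the groups were apart, but 7 of the 14 fits that left out a library lost the call (1.65 ± 0.46, adjusted p = 0.0272, and up to 0.125). The same rule named 4 genes between 0.68 and 1.26. These were MDM36, a factor of mitochondrial distribution, FIG4, a phosphoinositide phosphatase, PAC2, a tubulin cofactor, and NSE3, a subunit of the Smc5-Smc6 complex. Their adjusted p was 0.0234, 0.00493, 0.0293 and 0.0272, and without H3K4R S97 each lost its call. Of the 14 fits that left out a library, 7 lost the call of NSE3, 6 that of PAC2 and 3 that of MDM36.

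YPR092W and YHL006W-A, open reading frames without an entry in the RefSeq table, were also higher in H3K36 than in H3K4 mutants. YPR092W, chosen after its values were seen, had 0 counts in all 5 H3K4 libraries, out of 6792475, and 149 counts in the 9 H3K36 libraries, out of 13477789. With 3 counts over the H3K4 group as the floor, the pooled level in H3K36 libraries was at least 25-fold higher. This bound leaves out the spread between libraries and does not hold for each genotype. YPR092W averaged 12.9 CPM in H3K36A, 13.2 CPM in H3K36Q and 3.26 CPM in H3K36R libraries, against a floor of 0.44 CPM. The level of YPR092W was 10.3 to 17.7 CPM in H3K36A and H3K36Q libraries, 0.521 to 6.7 CPM in H3K36R libraries and 0 to 2.53 CPM in WT libraries. YHL006W-A ranged from 12.5 to 31.6 CPM in H3K36 libraries, from 4.13 to 10.4 CPM in H3K4 libraries and from 19.7 to 40 CPM in WT libraries, and was higher in H3K36 than in H3K4 mutants by 1.54 ± 0.34 (SE, adjusted p = 0.00437, or 0.0687 without H3K4R S97). Whether the authors counted by strand is not given in the sources used here, so reads of such frames cannot be told from those of a transcript that overlaps them.

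Among middle sporulation genes, IRC18, LOH1 and CDA1 were lower in H3K36 mutants. The list of middle sporulation genes, which Ndt80 induces in meiosis, had 26 of 34 members with enough counts to test. Of these 26, 4 were lower in H3K36 mutants, against 1.08% of all genes tested, and 0 were higher. A difference below 0 was seen in 22, and the median was -0.44, against -0.02 over all genes. The list was chosen with earlier results of these data known, so these shares are not independent support. Among the 4, IRC18 and LOH1 are neighbouring genes. Summed over the 26 genes, levels were 490.3 to 645.2 CPM in H3K36 libraries and 566.7 to 901.9 CPM in H3K4 libraries, with overlap. In WT libraries the sum was 418.1 to 637.3 CPM. IRC18, a gene linked to the outer spore wall, lies on chromosome X at 376662 to 377336 (sacCer3). IRC18 had 3.45, 2.57 and 3.78 CPM in H3K36A libraries, 3.81, 4.89 and 3.65 CPM in H3K36Q libraries, and 15.6, 3.39 and 8.94 CPM in H3K36R libraries. In H3K4Q libraries IRC18 had 22.9, 13.4 and 37.4 CPM, in H3K4R libraries 27.6 and 48.4 CPM, and in WT libraries 17.7 to 36.6 CPM. A single H3K36 library, H3K36R S51, reached into the H3K4 range. IRC18 was lower in H3K36 mutants by 2.56 ± 0.25 on the log2 scale (SE, adjusted p = 2.93e-11).

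LOH1, also linked to the outer spore wall, is the divergent neighbour of IRC18, at 375115 to 375774 of chromosome X, with 887 bases between the coding regions. LOH1 had 0 to 2.08 CPM in H3K36 libraries, with a median of 0.816 CPM. In H3K4Q libraries LOH1 had 8.26, 5.51 and 9.56 CPM, in H3K4R libraries 4.87 and 6.34 CPM, and in WT libraries 5.06 to 7.07 CPM. Every H3K36 library lay below every H3K4 and every WT library. In these bulk samples, fewer cells with a transcript and less of it per cell cannot be told apart. The log2 difference from H3K4 mutants was -2.76 ± 0.42 (SE, adjusted p = 1.41e-05).

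CDA1, a chitin deacetylase that makes the chitosan of the spore wall, followed with 0 to 8.38 CPM in H3K36 libraries (median 1.63 CPM). In H3K4Q libraries CDA1 had 8.72, 4.72 and 15.6 CPM, and in H3K4R libraries 6.49 and 16.6 CPM. H3K36R S95 held the highest H3K36 value, and the next was 2.54 CPM. CDA1 was lower by 2.81 ± 0.40 (SE, adjusted p = 4.87e-06). GAS4, a glucan-elongating enzyme of the spore wall, had 1.29 to 7.82 CPM in H3K36 libraries and 6.29 to 17.9 CPM in H3K4 libraries, and was lower by 1.41 ± 0.34 (adjusted p = 0.00934, or 0.0629 without H3K4R S56). NDT80 itself averaged 10.9 ± 3.94 CPM in H3K36 libraries and 9.98 ± 3.62 CPM in H3K4 libraries (adjusted p = 0.95). IRC18, LOH1 and CDA1 kept their call in all 14 fits that left out a library, with adjusted p up to 1.82e-07, 0.00211 and 0.00418.

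Among the cell wall and other genes of low-oxygen growth, TIR3 and TIR1 were lower in H3K36 mutants. Of 12 tested members, these 2 were lower, against 1.08% of all genes tested, and 0 were higher. A difference below 0 was seen in 11, and the median was -0.47. This list was also chosen with earlier results of these data known, so its shares are not independent support. TIR3, a mannoprotein of the cell wall, ranged from 35.4 to 69.3 CPM in H3K36 libraries, with a median of 49.2 CPM. In H3K4Q libraries TIR3 had 122.5, 125.1 and 147.8 CPM, in H3K4R libraries 102.2 and 176 CPM, and in WT libraries 39.6, 78, 74.4 and 45 CPM. All H3K4 libraries were above all H3K36 and WT libraries, and the log2 difference between residues was -1.42 ± 0.22 (SE, adjusted p = 1.55e-05, and up to 0.00418 without a library). TIR1, of the same family, ranged from 160.2 to 238 CPM in H3K36 libraries. In H3K4Q libraries TIR1 had 323.9, 278 and 721 CPM, and in H3K4R libraries 313 and 323 CPM. The groups did not overlap, and TIR1 was lower by 0.92 ± 0.20 (SE, adjusted p = 0.00424, or 0.0707 without H3K4Q S98, the highest library).

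HEM13, a heme synthesis enzyme that rises at low oxygen, had 62.8 ± 14 CPM in H3K36 libraries and 101.05 ± 13.2 CPM in H3K4 libraries, without overlap, and missed the threshold (-0.70 ± 0.21, SE, adjusted p = 0.053). It was named to fill the rule up to 10 genes. ROX1, the repressor of this group, was the single member above 0 (1.01 ± 0.33, adjusted p = 0.083). Summed over the 12 genes, levels were 341.6 to 529.6 CPM in H3K36 libraries, 595.5 to 1154 CPM in H3K4 libraries and 424.8 to 697.7 CPM in WT libraries. Much of these sums came from TIR1 and TIR3, the called members. TIR1 averaged 199.3 CPM in H3K36 and 391.9 CPM in H3K4 libraries, and TIR3 51.2 and 134.7 CPM. CYC7, the cytochrome c isoform of low-oxygen cells and 1 of 38 tested genes of the respiration list, was the only called member of that list. CYC7 had 0.521 to 5.42 CPM in H3K36 libraries and 4.13 to 22.2 CPM in H3K4 libraries, lower by 1.88 ± 0.46 (adjusted p = 0.0107, or 0.379 without H3K4R S97, its highest library).

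Other genes that were lower in H3K36 mutants without overlap, which the naming rule asked for, included YAT1 and UBC5. YAT1, a carnitine acetyltransferase at the mitochondrial outer membrane, ranged from 7.08 to 13.2 CPM in H3K36 libraries and from 8.14 to 14.2 CPM in WT libraries. In H3K4Q libraries YAT1 had 24.3, 14.9 and 32.2 CPM, and in H3K4R libraries 17.9 and 37.3 CPM. YAT1 was lower in H3K36 than in H3K4 mutants by 1.31 ± 0.22 (SE, adjusted p = 6.9e-05), and kept its call in all 14 fits that left out a library. UBC5, a ubiquitin-conjugating enzyme, ranged from 9.79 to 17.7 CPM in H3K36 libraries and from 19.5 to 35.6 CPM in H3K4 libraries (-1.06 ± 0.22, adjusted p = 0.0015, or 0.101 without H3K4R S97). GSP2, a Ran GTPase, was lower by 0.88 ± 0.24 (adjusted p = 0.0261), BLS1, a subunit of an endosomal complex, by 0.92 ± 0.26 (adjusted p = 0.0325), and both lost the call without H3K4R S97. UBC5 and GSP2 have near-identical copies, UBC4 and GSP1, so the share of reads assigned to each is uncertain. TMH18, FPT1 and RBD2, named by the same rule, were lower by 0.73, 0.73 and 0.53, with adjusted p of 0.0117, 0.0393 and 0.0379, and also lost the call without that library. Of the 14 fits that left out a library, 11 lost the call of FPT1, 10 that of RBD2 and 9 that of BLS1.

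**Figure D2:**
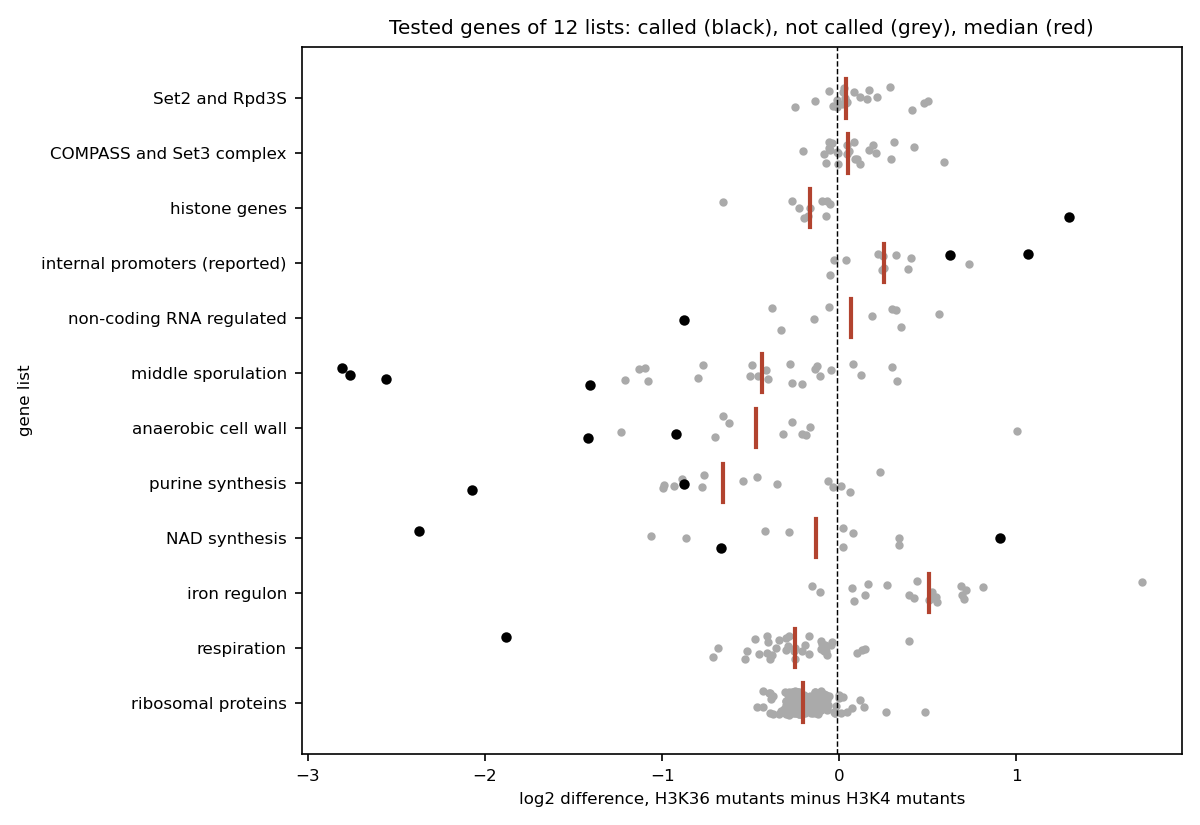
Log2 difference of H3K36 mutants minus H3K4 mutants for each tested gene of 12 lists, with called genes in black, others in grey, list medians as red bars and the median of all genes (-0.02) as a dashed line. Middle sporulation, anaerobic wall and purine genes lie mostly to the left (medians -0.44, -0.47 and -0.66), and iron genes mostly to the right (0.51) with no called member.

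Among purine synthesis genes, ADE17 and ADE12 were lower in H3K36 mutants. Of 16 genes of purine and one-carbon metabolism, 2 were lower, against 1.08% of all genes tested, and 0 were higher. A difference below 0 was seen in 13, and the median was -0.66. This list was also chosen with earlier results of these data known, so its shares are not independent support. ADE17, which makes IMP at the end of the pathway, ranged from 15.2 to 53.7 CPM in H3K36 libraries, with a median of 21.9 CPM. It had 196, 293 and 40 CPM in H3K4Q libraries, 56 and 70.6 CPM in H3K4R libraries, and 24.8 to 62.2 CPM in WT libraries. ADE17 was lower by 2.07 ± 0.50 (SE, adjusted p = 0.00992, or 0.0771 without H3K4R S97). ADE12, the first enzyme from IMP to AMP, had 207.5 ± 51.6 CPM in H3K36 libraries, 391 ± 114.3 CPM in H3K4 libraries and 299 ± 116.2 CPM in WT libraries, and was lower by 0.88 ± 0.22 (adjusted p = 0.0117, or 0.283 without H3K4R S97). The summed level of the 16 genes was 2515 to 3676 CPM in H3K36 libraries, 2924 to 7062 CPM in H3K4 libraries and 3289 to 5012 CPM in WT libraries, with both highest values in H3K4Q libraries of the first set.

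NAD synthesis genes moved in both directions. Of 12 tested, 1 was higher, against 1.84% of all genes tested, and 2 were lower, against 1.08%. Their median was -0.13. This list, too, was chosen with earlier results of these data known. BNA7, kynurenine formamidase, had 73.3 ± 16.7 CPM in H3K36 libraries (SD, n = 9), 40.3 ± 10.8 CPM in H3K4 libraries (SD, n = 5) and 86.1 ± 26.4 CPM in WT libraries (SD, n = 4), and was higher in H3K36 than in H3K4 mutants by 0.91 ± 0.17 (SE, adjusted p = 0.000414). BNA2, the dioxygenase that opens the pathway from tryptophan, had 0 to 1.48 CPM in H3K36 libraries and 1.74 to 3.96 CPM in H3K4 libraries, lower by 2.37 ± 0.60 (adjusted p = 0.0142, or 0.169 without H3K4R S97). TNA1, the nicotinic acid permease, averaged 142 ± 25.1 CPM in H3K36 libraries and 229 ± 70.4 CPM in H3K4 libraries, lower by 0.67 ± 0.15 (adjusted p = 0.00356, or 0.136 without H3K4R S97). BNA1 did not differ between residues beyond the test (adjusted p = 0.245) and was low in both: 27.1 to 102.7 CPM in H3K36 libraries and 56 to 80.1 CPM in H3K4 libraries, against 149 to 209.7 CPM in WT libraries.

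Iron regulon genes showed a shift without a call. Of 21 tested genes, 0 were called, 19 had a difference above 0, and the median was 0.51 on the log2 scale. Over all genes tested, 1.84% were called higher and 1.08% lower, so 0 calls of 21 lie near those shares. In libraries of the first set the summed level of the 21 genes was 1087 to 1830 CPM in H3K36 libraries and 613.5 to 849.4 CPM in H3K4 libraries. In the second set the groups overlapped, at 3727 to 6272 CPM in H3K36 libraries and 3190 to 6313 CPM in H3K4 libraries. The level thus moved more between sets of libraries than between residues. ARN1, a siderophore transporter picked after its values were seen, came closest to a call, with 17.5 ± 10.3 CPM in H3K36 libraries and 5.86 ± 5.72 CPM in H3K4 libraries (adjusted p = 0.0539).

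**Figure D3:**
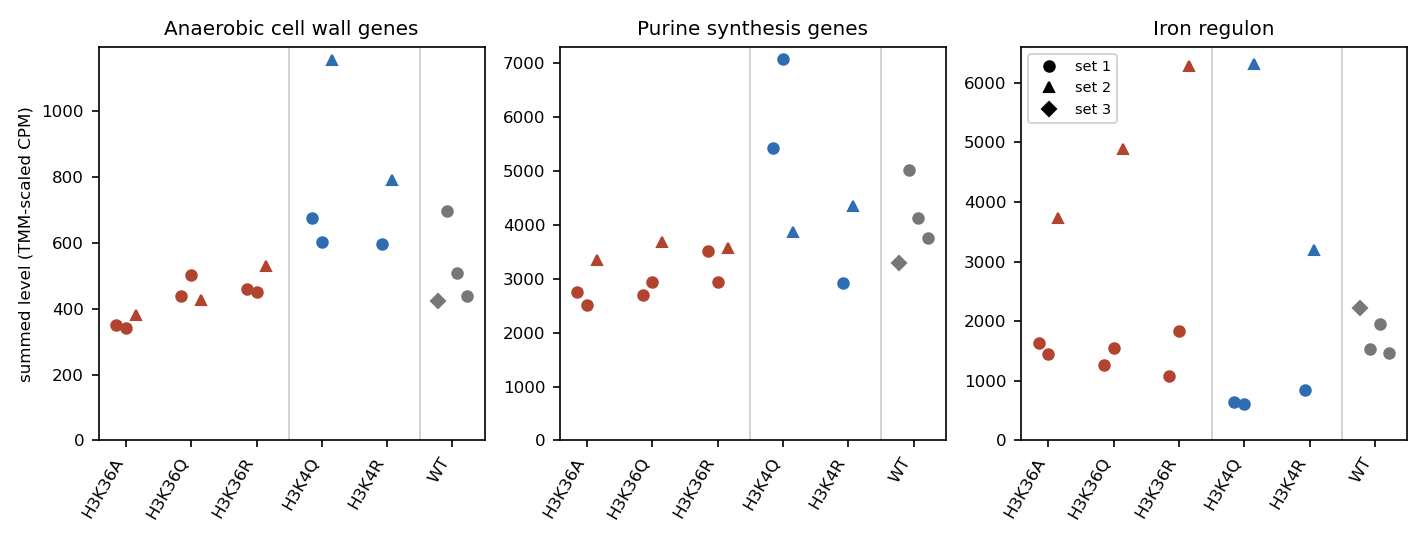
Summed level of anaerobic cell wall genes, purine synthesis genes and iron regulon genes in each library (TMM-scaled CPM, linear axis from 0), with H3K36 mutants in red, H3K4 mutants in blue and WT in grey, and the shape of a point giving its set of sample numbers. The anaerobic wall genes of the H3K36 libraries (341.6 to 529.6 CPM) lie below those of the H3K4 libraries (595.5 to 1154 CPM), whereas iron genes are higher in the second set in both.

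In the larger lists many genes leaned one way with few calls, where 1.84% of all genes tested were called higher and 1.08% lower. Of the cytosolic ribosomal protein genes, 0 were called, 130 had a difference below 0 and 8 above, and the median was -0.20. Respiratory chain and ATP synthase genes had 34 of 38 differences below 0, with a median of -0.25 and CYC7 as the single call. Amino acid synthesis genes under Gcn4 had 34 of 41 below 0, a median of -0.21 and 1 call, HIS1 of histidine synthesis (-0.70 ± 0.17, SE, adjusted p = 0.0107, or 0.39 without H3K4R S97). Ribosome biogenesis genes (44 tested), pheromone response genes (21), chaperones (21) and cell cycle genes (21) had 0 calls, with medians of -0.08, 0.32, 0.26 and 0.02. Nitrogen catabolite genes had 3 calls of 29: DUR1,2, which degrades urea, and DAL2, of allantoin breakdown, were higher, and AGP1, an amino acid permease, was lower (-0.66 ± 0.16, adjusted p = 0.00825, or 0.158 without H3K4R S97). DAL2 lost its call in 5 of the 14 fits that left out a library, H3K4R S97 among them, with adjusted p up to 0.129. HUG1, an inhibitor of ribonucleotide reductase that DNA damage induces, was the single call of 12 damage genes and was lower by 1.76 ± 0.40 (adjusted p = 0.00474, or 0.231 without H3K4R S97). Genes starting within 20 kb of a chromosome end had 2 higher and 3 lower calls, with 47 differences above 0, 56 below and a median of -0.03. In the remaining lists at most 1 gene was called.

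Each residue was then compared with the same 4 WT libraries, to see which mutants stood away from WT. By sample number WT S46, WT S81 and WT S82 belong to the first set, and WT S133 lies outside both sets. No WT library belongs to the second set, which held the mutant libraries S94 to S98. Differences from WT may therefore include differences between sets of libraries. In H3K36 mutants against WT, 27 genes were higher (0.464%) and 34 lower (0.584%). In H3K4 mutants against WT, 35 were higher (0.601%) and 82 lower (1.41%). As both comparisons share the WT libraries, their values are given side by side for the same genes and not set against each other. Of the 170 genes that differed between residues, 28 were also called in H3K36 mutants against WT, 32 in H3K4 mutants against WT, 0 in both and 110 in neither. With the set of libraries as a covariate, 7.34% of the genes tested were called in H3K36 mutants against WT and 5.03% in H3K4 mutants against WT, and with only the compared genotypes in the fit 0.0344% and 0.0515%. The WT comparisons also moved with single libraries. In H3K36 mutants against WT 61 genes were called in all, 25 without WT S46 and 2.22% of the genes tested without WT S133. In H3K4 mutants against WT 2.01% were called in all, with 21 genes without H3K4R S56, 53 without H3K4Q S57, 63 without H3K4Q S58, and 68, 29 and 56 without WT S46, WT S81 and WT S82.

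The spore wall genes IRC18 and LOH1 were called against WT in H3K36 mutants and not in H3K4 mutants. IRC18 was lower in H3K36 mutants than in WT by 2.25 on the log2 scale (adjusted p = 9.65e-09), and in H3K4 mutants its difference from WT was 0.31 (adjusted p = 0.632). LOH1 was lower in H3K36 mutants by 2.68 (adjusted p = 2e-05), with 0.08 in H3K4 mutants (adjusted p = 0.946). CDA1 was at -1.55 in H3K36 mutants and 1.26 in H3K4 mutants, and neither value passed (adjusted p = 0.0814 and 0.0953). HUG1 and HIS1 were also lower in H3K36 mutants than in WT, by 1.67 and 0.75 (adjusted p = 0.0163 for each), and in H3K4 mutants stood at 0.10 and -0.05. PUL3, PGU1, SEC6, DUR1,2 and LAM5 were higher in H3K36 mutants than in WT, by 2.47, 2.26, 0.62, 0.69 and 1.15. LAM5, a sterol transfer protein, averaged 117.8 ± 41.4 CPM in H3K36 libraries (SD, n = 9), 46 ± 6.29 CPM in H3K4 libraries (SD, n = 5) and 51.2 ± 7.56 CPM in WT libraries (SD, n = 4). Between residues LAM5 was higher in H3K36 mutants by 1.31 ± 0.21 (SE, edgeR adjusted p = 4.93e-05).

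Other genes were called against WT in H3K4 mutants and not in H3K36 mutants. TIR3 was higher in H3K4 mutants than in WT by 1.20 and YAT1 by 1.16 (adjusted p = 0.0125 for both), whereas in H3K36 mutants they stood at -0.22 and -0.15. AGP1 was higher in H3K4 mutants by 1.16 (adjusted p = 0.000225), with 0.50 in H3K36 mutants (adjusted p = 0.151). BNA7, RGD2, FDC1, CDC4 and ADH2 were lower in H3K4 mutants than in WT, by 1.15, 0.91, 0.63, 0.56 and 1.99. In H3K36 mutants the same 5 genes stood at -0.24, -0.21, 0.16, 0.12 and -0.34, and none was called. YLR338W, an open reading frame without an entry in the RefSeq table, averaged 17.1 CPM in H3K36 libraries, 3.09 CPM in H3K4 libraries and 11.9 CPM in WT libraries, and was lower in H3K4 mutants than in WT by 2.04 (adjusted p = 0.0275). ADH2 lost its call against WT without H3K4Q S57, H3K4R S56, WT S81 or WT S82, and YLR338W without any of these or WT S46. MET1, CPR2 and YNL040W lay on opposite sides of WT: they were at 0.44, 0.35 and 0.41 in H3K36 mutants and at -0.57, -0.56 and -0.57 in H3K4 mutants, and none of these passed the test against WT.

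**Figure D4:**
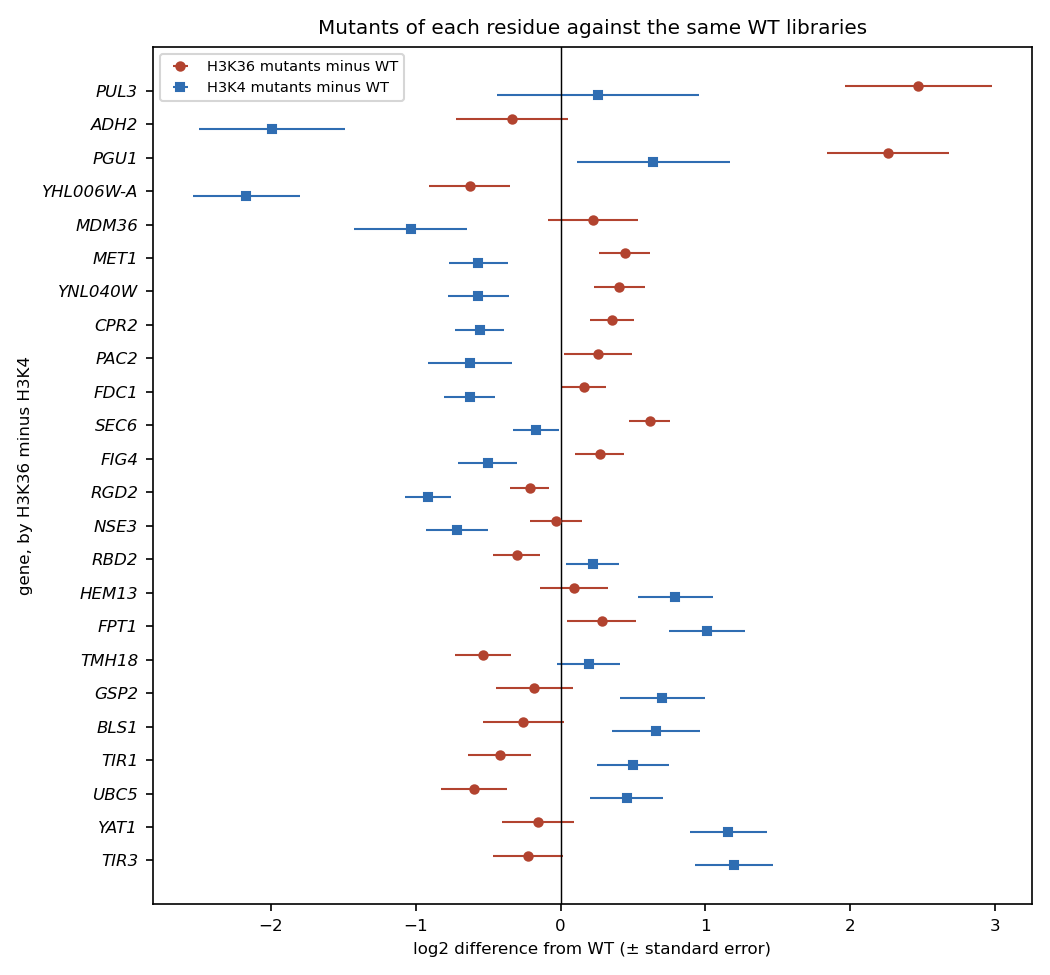
Log2 difference from WT (± SE) of the 24 genes named by rule in the comparison of residues, with H3K36 mutants as red circles and H3K4 mutants as blue squares, both set against the same 4 WT libraries. PUL3 and PGU1 stand apart from 0 in H3K36 mutants (2.47 and 2.26), and TIR3 and YAT1 in H3K4 mutants (1.20 and 1.16).

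Further genes were named by the same rule against WT or belong to the lists above. BNA1, 3-hydroxyanthranilate dioxygenase of NAD synthesis, was lower by 1.75 in H3K36 mutants (adjusted p = 5.23e-11) and by 1.33 in H3K4 mutants (adjusted p = 0.000124). ZRT1, the high-affinity zinc transporter, had 70.3 to 225.7 CPM in H3K36 libraries, 103.8 to 770 CPM in H3K4 libraries and 38.4 to 82.8 CPM in WT libraries. It was higher in H3K4 mutants than in WT by 1.94 (adjusted p = 0.0162), lost that call when H3K4Q S98, H3K4R S97, WT S81 or WT S82 was left out, and was not called in H3K36 mutants (0.91, adjusted p = 0.271). COA3, an assembly factor of cytochrome oxidase, was lower in H3K36 mutants than in WT by 1.45 (adjusted p = 0.0222), and lost that call without WT S46, which held 54.3 CPM against 12.7 to 17.9 CPM in the other WT libraries. YMR090W was higher in H3K36 mutants than in WT by 1.18 (adjusted p = 0.0261). YOR053W was higher in H3K4 mutants by 1.80 (adjusted p = 0.0309) and the small nucleolar RNA snR65 by 1.44 (adjusted p = 0.0159). YMR090W lost this call without H3K36Q S53, H3K36R S52, WT S133 or WT S46, snR65 without H3K4R S56 or WT S81, and YOR053W without H3K4Q S57, H3K4R S56, WT S46, WT S81 or WT S82.

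H3K36A has no counterpart at position 4, so the substitutions present at both residues were compared on their own. H3K36Q and H3K36R against H3K4Q and H3K4R gave 56 higher genes (0.962%) and 35 lower genes (0.601%), and 89 of these 91 were among the 170. There were 45 calls without H3K36R S52 and 54 without H3K4R S97. By the naming rule PUL3, PGU1 and YHL006W-A led the increases and YAT1, TIR3 and UBC5 the decreases. With glutamine, H3K36Q against H3K4Q gave 15 higher genes (0.258%) and 5 lower (0.0859%). With arginine, H3K36R against H3K4R, with 2 libraries of H3K4R, gave 3 higher (0.0515%) and 1 lower (0.0172%). Leaving out any single library of the pair gave 4 to 15 calls with glutamine and 0 to 8 with arginine.

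IRC18 was the gene called with either substitution: it was lower by 2.56 ± 0.41 (SE, adjusted p = 0.000206) with glutamine and was lower by 1.94 ± 0.38 (adjusted p = 0.00996) with arginine. IRC18 kept its call with glutamine whichever library was left out, and lost it with arginine without H3K36R S52, H3K36R S95 or H3K4R S97. With glutamine, LAM5 was higher by 1.39 ± 0.29 (adjusted p = 0.0122), ADE17 was lower by 3.18 ± 0.79 (adjusted p = 0.0486), and YCL049C was lower by 1.54 ± 0.39 (adjusted p = 0.04995). LAM5 lost its call without H3K36Q S96, H3K4Q S57 or H3K4Q S58, ADE17 without any library of the pair but H3K4Q S98, and YCL049C without any but H3K36Q S54. With arginine, IDP3, a peroxisomal isocitrate dehydrogenase, averaged 10.6 CPM in H3K36R and 1.60 CPM in H3K4R libraries, and was higher by 2.66 ± 0.57 (adjusted p = 0.0294). CDC4, the F-box protein of a ubiquitin ligase, was higher by 1.02 ± 0.20 (adjusted p = 0.00996) and BNA7 by 1.26 ± 0.28 (adjusted p = 0.0296). IDP3, CDC4 and BNA7 lost these calls without H3K4R S56, without H3K4R S97, without H3K36R S52 and without H3K36R S95.

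Whether the difference between residues depended on the substitution was tested directly. No gene passed: 0 of 5821 were called with edgeR and 0 with DESeq2, and 110 genes had an unadjusted p under 0.05 with edgeR. For IDP3 the difference between residues with glutamine minus that with arginine was -2.35 ± 0.70 on the log2 scale (SE), and its adjusted p was 0.9998. A miss in this test does not show that glutamine and arginine act alike. For IRC18 the same quantity was -0.62 ± 0.57, and for MET1 0.05 ± 0.38.

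Called genes differed in coding length. Of 5359 coding genes tested, the median coding length was 1263 bases, against 1740 bases for those called higher in H3K36 mutants and 787.5 bases for the 62 called lower. In 5 length classes of nearly equal size, from short to long, 0.836%, 1.59%, 1.49%, 2.53% and 2.99% were called higher, and 2.51%, 1.22%, 0.836%, 1.03% and 0.187% were called lower. The median log2 difference moved from -0.09 in the shortest class to 0.05 in the longest. This slope came from the second set of libraries, where the medians were -0.13 in the shortest and 0.14 in the longest class. In the first set they were -0.005 in both. In single libraries the difference between the longest and the shortest class, relative to WT, lay between -0.02 in H3K36R S95 and 0.53 in H3K36Q S53 for H3K36 mutants, and between -0.22 in H3K4R S97 and 0.39 in H3K4R S56 for H3K4 mutants. The reads placed at several sites, relative to gene counts, were 3.56 in H3K36R S95 and 6.24 in H3K36Q S53, and 3.89 in H3K4R S97 and 6.69 in H3K4R S56. The part of this ratio in the slope was not tested. With the ratio as a covariate, an alternative chosen after the data were seen, 242 genes were called, among them all 170.

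**Figure D5:**
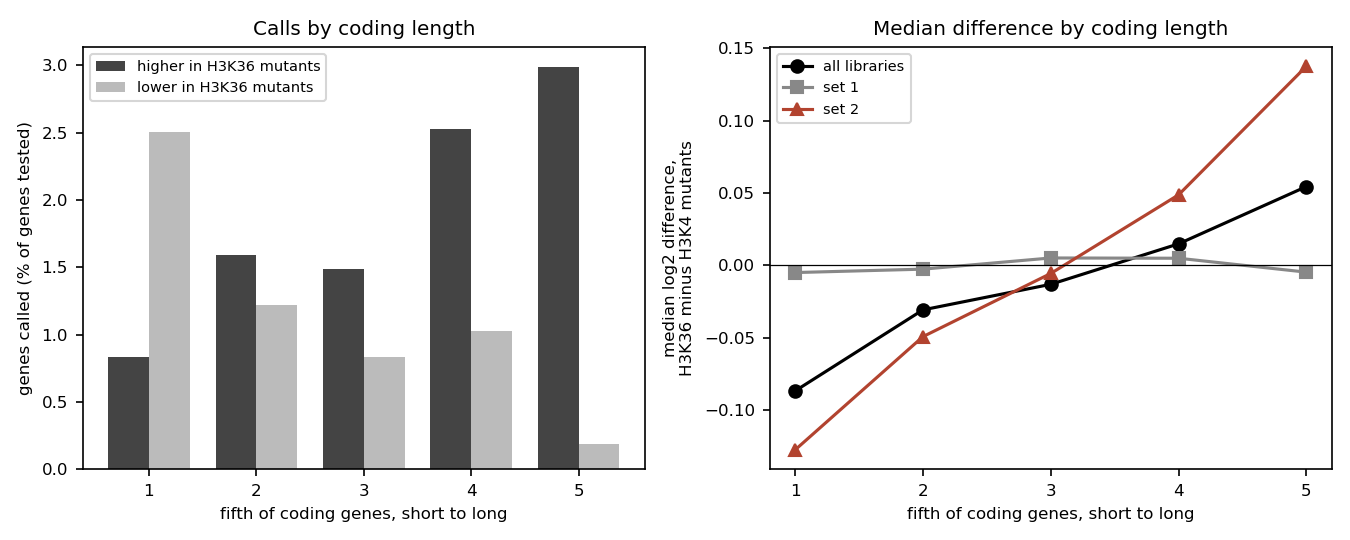
Left, percent of coding genes called higher (dark bars) and lower (light bars) in H3K36 than in H3K4 mutants, in 5 classes of coding length from short to long. Right, median log2 difference of H3K36 minus H3K4 mutants in each class for all libraries, the first set and the second set, which runs from -0.13 to 0.14 in the second set and is flat in the first.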

How the data were processed

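Messenger RNA was measured by QuantSeq 3′ sequencing of RNA extracted with hot phenol, per the labels' protocols. The authors deposited 1 table of raw counts per gene, with 7122 genes and 5 summary lines (reads without a gene, ambiguous, of low quality, not aligned or placed at several sites), which were left out of library sizes and tests. TopHat, HTSeq, featureCounts 1.5.3 and the genome build sacCer3 are named in the submitters' processing notes, and which tool made this table and whether it counted by strand are not given in the sources used here. The chromatin accessibility samples and the authors' table of fold changes were not used here.

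Libraries were grouped by genotype from the labels, and 89 of 30 genotypes entered 1 fit, so that they share an estimate of the spread. H3K4R S55, with 24010 counts in genes, was left out. In edgeR 4.0.16 (R 4.3.3), counts were scaled by TMM, 5821 genes passed the filter on low counts, and a quasi-likelihood model with 1 coefficient per genotype and 59 residual degrees of freedom was fitted. The mean of H3K36A, H3K36Q and H3K36R was set against that of H3K4Q and H3K4R, and p-values were adjusted over all genes tested by the Benjamini-Hochberg method, with a threshold of 0.05. Errors reflect how far libraries with the same genotype differed, with a common coefficient of variation of 23.2%. Replicate pairs differed by more than counting noise in every case (chi-square per degree of freedom of at least 2.51). In the mutants compared, pairs within the first set gave 2.51 to 7.25 and pairs across sets 13.8 to 35.4. Pairs of WT libraries gave 8.78 to 44.7. Without S55, H3K4R had 1 library in each set. On simulated counts, the test found 83% of 2-fold and 99% of 4-fold changes, with 192 genes called, 10 of them unchanged. These shares describe those counts alone. How far they carry over to libraries that differ between sets, or to genes of a few CPM, was not tested.

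Names and coordinates come from a RefSeq table of build R64, which matched 6076 of the genes (85.3%). Genes were named if called, with all libraries of the groups apart and a mean of at least 10 CPM in the higher group (up to 14 per direction, filled up to 10 by p-value), or if they were called members of the gene lists. The members and lists were chosen with earlier results of these data known. Alternatives were RLE scaling, no filter, DESeq2 1.42.0, limma 3.58.1 with genotype as a random effect, other sets of libraries or genotypes, and each library left out.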

Additional observations from a re-analysis of the deposited data

Results flagged for a closer look

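In 8 cases, among the H3K36 and the H3K4 libraries of 52 named genes, the highest or lowest library stood far from the next, by Dixon's criterion at 95%. Chance gives about 1 in 20 such sets of values. Among H3K36 libraries, H3K36R S51 was far above the others for IRC18 (15.63 CPM, next 8.938 CPM) and for ADE17 (53.67 CPM, next 30.85 CPM). H3K36R S95 was high for CDA1 (8.379 CPM, next 2.544 CPM), and H3K36Q S96 for PAC2 (18.23 CPM, next 14.07 CPM).

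Among H3K4 libraries, H3K4Q S98 was far above the others for TIR1 (721.4 CPM, next 323.9 CPM) and far below them for MDM36 (0.8691 CPM, next 7.302 CPM). H3K4R S97 was high for CYC7 (22.2 CPM, next 7.865 CPM) and for CWP1, a cell wall mannoprotein (262.4 CPM, next 144.3 CPM). Without the library in question TIR1, MDM36 and CYC7 lost their call, and IRC18, ADE17 and CDA1 kept theirs. PAC2 lost its call without H3K36Q S96, and CWP1 kept its call without H3K4R S97 but lost it in 6 of the 14 fits that left out a library, and with H3K4R S55 included.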

How the results depend on the processing

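No paired analysis was possible because the count columns carry a genotype and a sample number, and no replicate number. No named gene reversed its direction while called. A similar share of calls does not mean that the same genes were called. Between residues, all 170 called genes kept their call with the set of libraries or the reads at several sites as a covariate. Some lost it under RLE scaling, without the filter, with H3K4R S55 and with DESeq2. More lost it with limma or without H3K36R. Values here are the percent of genes tested that were called. Between residues this share was 2.92%, and it stayed within 1.5 times of that under RLE scaling (2.97%), without the filter (2.45%), with H3K4R S55 (2.95%), with DESeq2 (3.14%), with limma (4.21%), with the set of libraries (4.38%) or the reads at several sites (4.16%, chosen after the data were seen) as a covariate, and without H3K36R (3.01%). It was 0.653% with the compared genotypes alone, 0.189% against a minimum fold of 1.5, 1.56% without H3K36A, 1.58% without H3K36Q, 0.636% without H3K4Q, 1.41% without H3K4R, 1.31% with genotypes of a residue pooled and 0.67% in the first set alone. Matched substitutions (1.56%) gave 2.61% with the set as a covariate, 0 with the compared genotypes alone and 0.0687% against the minimum fold. Glutamine alone (0.344%) gave 0.687%, 0 and 0.0687% under these settings and 0.584% with DESeq2. Arginine alone (0.0687%) gave 0.12% with H3K4R S55, 0 with the compared genotypes alone and 0 against the minimum fold. H3K36 mutants against WT (1.05%) gave 7.34%, 0.0344% and 0.12% with the set as a covariate, the compared genotypes alone and the minimum fold, and H3K4 mutants against WT (2.01%) gave 5.03%, 0.0515% and 0.0172%. The cause was not tested.

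With each library left out, the share ranged from 1.24% to 3.14% between residues, from 0.773% to 1.75% for matched substitutions, from 0.0687% to 0.258% for glutamine, from 0 to 0.137% for arginine, from 0.429% to 2.22% for H3K36 mutants against WT and from 0.361% to 2.70% for H3K4 mutants against WT. These ranges do not show how far the same genes were called in each fit. The test of residue by substitution gave 0 under each alternative run. Of the 52 called genes named, 13 kept their call whichever library was left out, and IRC18, CDA1 and TIR3 also kept it under the other alternatives run. Genes of a few CPM rest on a few counts per library.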

Other observations

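Genes outside the lists, chosen after their values were seen, included sporulation genes with very low levels. PFS1, which is needed for the prospore membrane, had 0 to 1.68 CPM in H3K36 libraries, 2.29 to 7.08 CPM in H3K4 libraries and 0.505 to 2.71 CPM in WT libraries. PFS1 was lower in H3K36 than in H3K4 mutants by 3.68 ± 0.68 on the log2 scale (SE, edgeR adjusted p = 0.000385). ANB1, the form of translation factor eIF5A made at low oxygen, averaged 10.8 CPM in H3K36 libraries and 29.8 CPM in H3K4 libraries, and was lower by 1.5 ± 0.40 (adjusted p = 0.0218).

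Genes of DNA end joining were also looked at after the fact. DNA polymerase POL4 averaged 63 CPM in H3K36 libraries and 34.8 CPM in H3K4 libraries, and was higher by 0.82 ± 0.18 (SE, edgeR adjusted p = 0.00453). The ligase gene DNL4 was higher by 0.81 ± 0.19 (adjusted p = 0.00713), XRS2 by 0.78 ± 0.18 (adjusted p = 0.00725) and the kinase gene TEL1 by 0.64 ± 0.13 (adjusted p = 0.00244). The partner genes LIF1, NEJ1, YKU70, YKU80, MRE11 and RAD50 were not called (adjusted p between 0.193 for RAD50 and 0.932 for YKU70).

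Small nucleolar RNAs lack a poly(A) tail when mature. Of 80 tested, 0 were called between residues, and the summed level was 6450 to 9992 CPM in H3K36 libraries, 7591 to 11280 CPM in H3K4 libraries and 5080 to 7029 CPM in WT libraries. Between residues 69 differences were below 0 and 11 above, with a median of -0.28, against -0.02 over all genes. Against WT, 1 was higher in H3K36 mutants, where 0.464% of all genes tested were. In H3K4 mutants 10 were higher, where 0.601% of all genes tested were. The median log2 difference from WT was 0.40 in H3K36 mutants and 0.67 in H3K4 mutants, both set against the same WT libraries.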
